A study of Mus musculus with 32 samples.

Results

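Chemokines are small secreted proteins that attract leukocytes through receptors of the G-protein-coupled family. The 10 ligands described here are Ccl2, Ccl3, Ccl4, Ccl7, Ccl9, Ccl12, Ccl24, Cxcl2, Cxcl10 and Cxcl16. They were chosen by name, as the rows of the deposited exon count table with these symbols, and all 10 were found among 24411 genes. Their RNA was followed in brains of mice of 2 lines on the C57BL/6 strain, Cx3cr1-CreER:RPL22-HA and Sall1-CreER:RPL22-HA. All mice of both lines, the controls included, carried the RiboTag allele, by which Cre recombination adds an HA epitope to the ribosomal protein RPL22. All were aged 4 to 6 weeks when they were gavaged with 4 doses of 5 mg tamoxifen on alternate days. Each of the 4 brains per line gave 4 libraries, 32 in 8 groups of 4. These are microglia sorted by flow cytometry (Sort), sorted microglia with anti-HA precipitation of their ribosomes (SortIP), unsorted brain homogenate precipitated with anti-HA (HA), and the same homogenate precipitated with mouse IgG1 (IgG), the control for RNA that binds without the epitope. Cre is driven by Cx3cr1, which is active in microglia and other brain macrophages, or by Sall1, which among brain macrophages marks microglia. The HA libraries hold RNA of whatever cells recombined.

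In the brain, microglia and the macrophages of the meninges and vessels are among the makers of these ligands. Many of the genes are low in resting cells and are switched on within minutes to hours through NF-kappaB, AP-1 or interferon signals. Several of their mRNAs are short-lived because of AU-rich elements in the 3′ untranslated region, which Zfp36 family proteins bind. CCL2, CCL7 and CCL12 act on CCR2 and draw monocytes. CCL3 and CCL4 are macrophage inflammatory proteins that draw macrophages and T cells, and CCL3 and CCL9 act on CCR1. CCL24 is an eotaxin that acts on CCR3, CXCL2 draws neutrophils through CXCR2, CXCL10 is induced by interferon and acts on CXCR3, and CXCL16 is made as a membrane protein that binds CXCR6.

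In the deposited coordinates (mm9), 7 of the genes lie on chromosome 11 and 3 on chromosome 5. Ccl2 (chr11:81849079-81850954), Ccl7 (chr11:81859214-81861025) and Ccl12 (chr11:81915347-81916901) are neighbours on the plus strand. Ccl9 (chr11:83386419-83392138, minus), Ccl3 (chr11:83461345-83462880, minus) and Ccl4 (chr11:83476086-83478185, plus) form a second group, and Cxcl16 (chr11:70267736-70273486, minus) stands apart. On chromosome 5 are Cxcl2 (chr5:91332925-91334964, plus), Cxcl10 (chr5:92775665-92777915, minus) and Ccl24 (chr5:136045807-136048913, minus). The rows of Cxcl16 and Cxcl10 overlap those of Zmynd15 and Art3. The strand setting of the count is not known here, so reads in the overlaps cannot be assigned with certainty. Zmynd15 was at 0 to 25.0 counts per 1000000 (CPM) and Art3 at 0 to 5.14 CPM over the 32 libraries.

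The libraries held 249881 to 1808789 gene counts in the sorted groups, 704183 to 4047465 in IgG, 286418 to 574671 in HA of the Cx3cr1 line and 1894943 to 3027342 in HA of the Sall1 line. For the 8 sorted Cx3cr1 libraries, title and description name opposite groups, and the text follows the titles ("titled Sort", "titled SortIP"). The column names of the deposited counts are those of the descriptions. A list of 26 microglia genes summed to 148929 to 162935 CPM in Cx3cr1 HA, 19862 to 23168 in Sall1 HA and 150335 to 167939, 113815 to 135028, 107506 to 128239 and 147227 to 166415 in Cx3cr1 titled Sort, titled SortIP, Sall1 Sort and Sall1 SortIP, with none of the 26 at 0 in any of these groups. IgG libraries reached 3295 to 4476 and 3065 to 3862 CPM. A list of 20 immediate early genes, which respond to stimuli within minutes, summed to 941 ± 43.4 CPM in HA of the Cx3cr1 line and 952 ± 135 in that of the Sall1 line, below 7624 ± 2501, 12654 ± 5486, 11740.4 ± 5847 and 7599 ± 4639 in the 4 sorted groups (mean ± SD, n = 4). On both lists titled Cx3cr1 SortIP was nearer to Sall1 Sort, and titled Cx3cr1 Sort nearer to Sall1 SortIP. Each driver gene was lower in sorted cells of its own line, Cx3cr1 at 2612 ± 349.9 and 3444 ± 1168 CPM in the titled Cx3cr1 groups against 5419 ± 912 and 4378 ± 749 in Sall1 Sort and SortIP, and Sall1 at 271 ± 38.9 and 247 ± 20.0 CPM in Sall1 Sort and SortIP against 412 ± 61.6 and 474 ± 33.2 in the titled Cx3cr1 groups.

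Summed over the 10 ligands, the sorted libraries carried 704 to 1723 CPM in titled Cx3cr1 Sort, 941 to 2622 in titled Cx3cr1 SortIP, 1320.3 to 3058 in Sall1 Sort and 834 to 1807 in Sall1 SortIP. The Cx3cr1 HA libraries carried 351 to 388 CPM and the Sall1 HA libraries 47.0 to 62.1, beside 12.2 to 37.7 and 8.52 to 35.1 in IgG. All 16 sorted libraries were thus above all 8 HA libraries in summed ligand RNA. The sorted libraries also differed among themselves by several-fold, and the HA groups had the narrower spread.

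**Figure D1:**
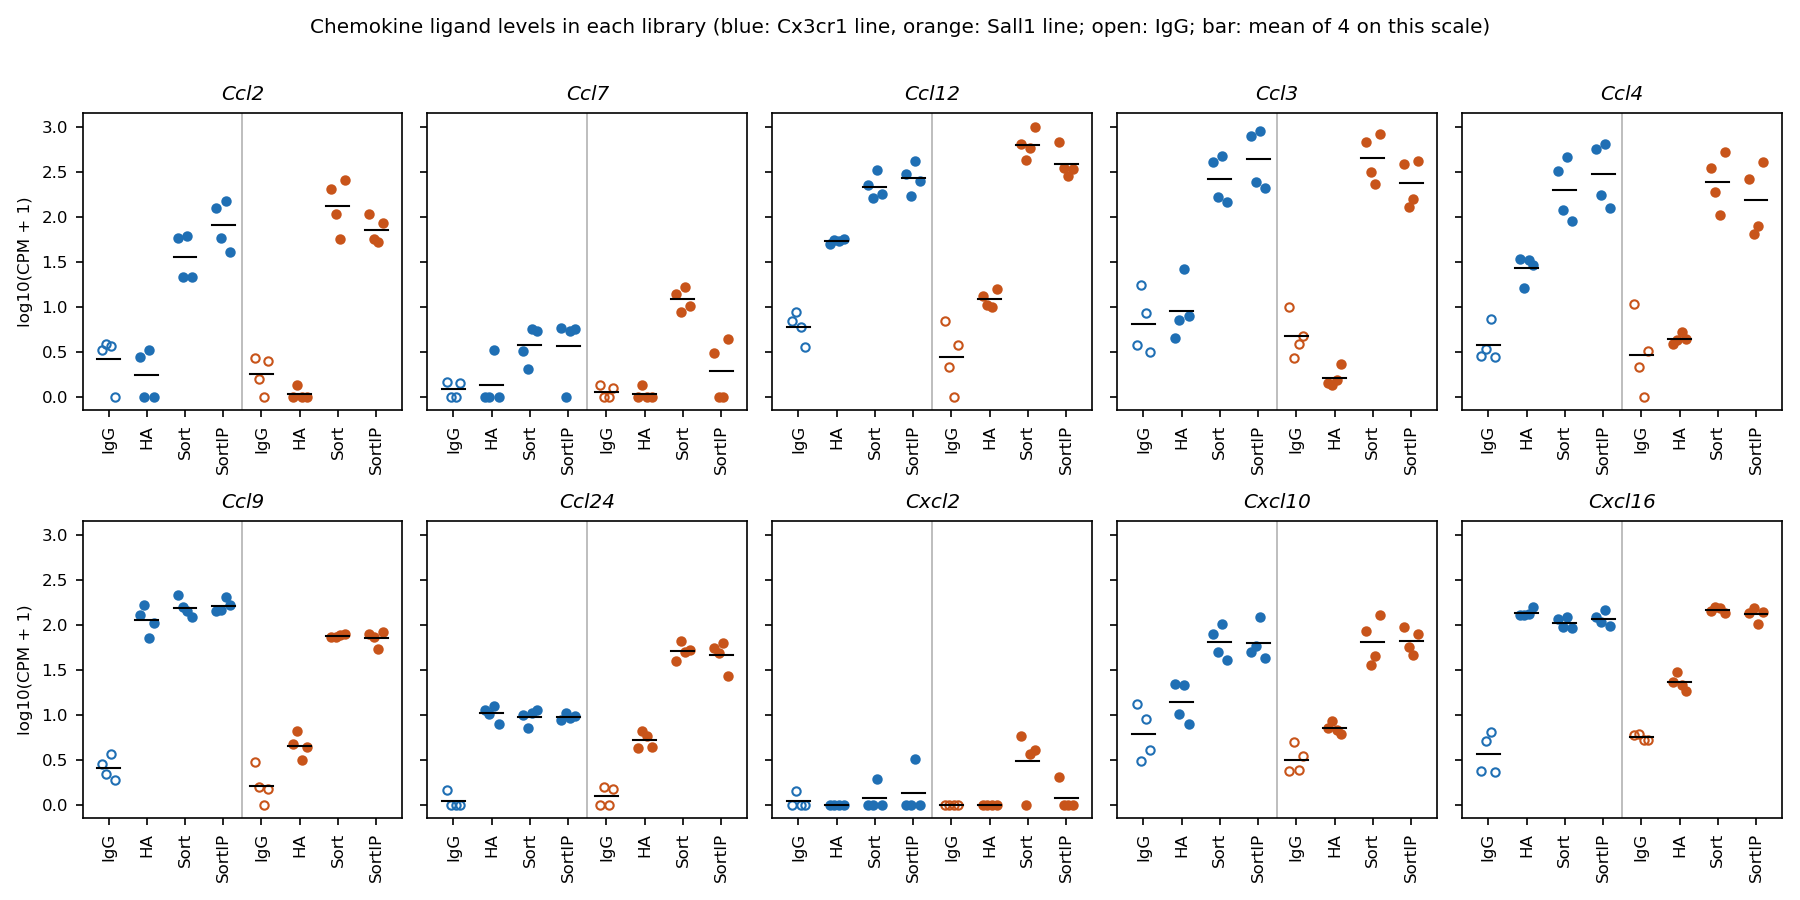
Level of each ligand in each of the 32 libraries as log10(CPM + 1), with 4 libraries (points, open for IgG) and their mean on this scale (bar) per group, Cx3cr1 line in blue and Sall1 line in orange. Ccl2, Ccl3, Ccl4, Ccl12 and Cxcl10 are higher in all sorted libraries than in all HA libraries of the same line, whereas Ccl9, Ccl24 and Cxcl16 overlap between HA and sorted libraries of the Cx3cr1 line.

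Per kilobase of transcript, which allows genes to be compared, Ccl12, Ccl3 and Ccl4 led in all 4 sorted groups. In titled Cx3cr1 SortIP the levels were 687 ± 465 CPM per kb for Ccl3, 579.6 ± 408 for Ccl4 and 537 ± 201 for Ccl12 (mean ± SD, n = 4), an order within the spread between mice. Ccl2 followed at 116 ± 65.8 CPM per kb, then Cxcl10 at 61.5 ± 32.9, Ccl9 at 54.9 ± 9.10 and Cxcl16 at 48.5 ± 9.12, neighbours that again overlapped within their SDs. Ccl24 (6.63 ± 0.525), Ccl7 (4.37 ± 2.92) and Cxcl2 (0.513 ± 1.03) closed the order. In Sall1 Sort, Ccl12 stood first at 1267 ± 470.4 CPM per kb, ahead of Ccl3 at 661 ± 372 and Ccl4 at 446 ± 286, and Ccl9 was eighth at 25.1 ± 1.04.

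The order differed in RNA precipitated straight from brain. In Cx3cr1 HA, Ccl12 led at 100.0 ± 6.03 CPM per kb, followed by Cxcl16 at 55.9 ± 5.75, Ccl4 at 41.4 ± 12.5 and Ccl9 at 39.1 ± 13.2. Ccl3, among the first 3 in the sorted groups, was at 13.3 ± 12.7 CPM per kb here, beside Cxcl10 at 13.2 ± 6.74. Ccl24 was at 7.41 ± 1.51 CPM per kb, Ccl2 at 1.26 ± 1.48, from 2 reads in all 4 libraries, and Cxcl2 had no read.

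Which ligand mRNAs were recovered on tagged ribosomes in the intact brain was read from HA against IgG. In the Cx3cr1 line, Ccl4, Ccl9, Ccl12, Cxcl10 and Cxcl16 passed the filter on low counts, and all 5 were called higher in HA. A gene was called at an adjusted p under 0.05, where all p values are from the quasi-likelihood test of edgeR and were adjusted by Benjamini and Hochberg's method over all genes tested. Of all 10021 genes tested, 64.5% were called in either direction and 28.6% were higher in HA. Since a ligand absent from IgG passes the filter only through its HA level, the 5 of 5 carries no weight as a count. The values follow ligand by ligand.

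Ccl9 stood at 129, 165, 71.1 and 105 CPM in the HA libraries of Cx3cr1 mice 1 to 4 and at 1.82, 1.21, 2.69 and 0.868 CPM in their IgG libraries. All HA libraries were far above all IgG libraries, by 6.49 ± 0.38 on the log2 scale (SE; adjusted p = 5.74e-10). Cxcl16 varied less among HA libraries, at 127, 128, 133 and 157 CPM in HA and 1.36, 4.05, 5.38 and 1.30 CPM in IgG (log2 fold 5.84 ± 0.35, adjusted p = 7.97e-10). Ccl12 was at 48.7, 55.1, 52.8 and 55.9 CPM in HA and 5.91, 7.69, 4.93 and 2.60 CPM in IgG, again with no overlap (log2 fold 3.70 ± 0.34, adjusted p = 1.06e-07).

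Ccl4 stood at 33.1, 15.3, 32.1 and 27.9 CPM in Cx3cr1 HA and 1.82, 2.43, 6.28 and 1.74 CPM in IgG, without overlap (log2 fold 3.55 ± 0.44, adjusted p = 3.79e-06). Its neighbour and close relative Ccl3 did not separate the groups, at 3.48, 6.12, 25.2 and 6.98 CPM in HA and 2.73, 16.6, 7.63 and 2.17 CPM in IgG, and did not pass the filter. Cxcl10 was at 20.9, 9.18, 20.6 and 6.98 CPM in HA and 12.3, 2.02, 8.07 and 3.04 CPM in IgG, where the groups overlapped. Its log2 fold of 1.70 ± 0.57 was called (adjusted p = 0.0169) but not with library totals alone (1.30, adjusted p = 0.0548), nor without HA replicate 1 (adjusted p = 0.0992) or 3 (adjusted p = 0.0760).

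The remaining ligands were at or near the limit that 3 counts set in Cx3cr1 HA, 5.22 to 10.5 CPM per library. Ccl24 had 6, 3, 5 and 2 reads in the 4 HA libraries (10.4, 9.18, 11.5 and 6.98 CPM) and 1 read in all IgG libraries, so that all HA libraries were above all IgG libraries. Pooled counts were 90.7-fold higher in HA (95% interval 14.1 to 3803). It did not pass the filter, and without the filter it was called (adjusted p = 3.23e-07). Ccl2 had 2 reads in HA and 18 in IgG, Ccl7 had 1 and 2, and Cxcl2 had 0 and 1. None of these 3 was detectable above IgG at this depth.

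Sall1 libraries gave 3 ligands that passed the filter, Ccl12, Cxcl10 and Cxcl16, and all 3 were called higher in HA than in IgG (71.3% of 11545 genes called, 35.2% higher). Ccl12 and Cxcl10 passed through their HA level, so the 3 of 3 carries no weight as a count. Cxcl16 was at 20.6, 17.6, 22.2 and 29.4 CPM in HA of mice 7, 9, 17 and 21 and at 4.26, 4.20, 5.02 and 5.10 CPM in IgG, without overlap (log2 fold 2.68 ± 0.29, adjusted p = 1.88e-07). Ccl12 was at 8.97, 15.0, 12.3 and 9.58 CPM in HA and 0, 2.72, 6.02 and 1.13 CPM in IgG (log2 fold 2.27 ± 0.44, adjusted p = 1.66e-04). Cxcl10 was at 5.80, 5.14, 6.17 and 7.60 CPM and 1.42, 2.47, 1.34 and 3.96 CPM (log2 fold 1.81 ± 0.40, adjusted p = 5.31e-04). HA exceeded IgG in all libraries for these 3, but with a length correction in the fit that pairs libraries of a mouse, Ccl12 (log2 fold 0.80 ± 0.44, adjusted p = 0.106) and Cxcl10 (0.74 ± 0.44, adjusted p = 0.144) were no longer called.

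Ccl9 and Ccl24 were also above IgG in Sall1 HA, though they failed the filter. Ccl9 was at 2.11, 3.43, 3.70 and 5.62 CPM in HA and 0, 0.494, 2.01 and 0.566 CPM in IgG, and without the filter it was called higher in HA (log2 fold 2.40 ± 0.62, adjusted p = 6.69e-04). Ccl24 was at 4.75, 3.43, 3.29 and 5.62 CPM in HA and 0, 0.494, 0 and 0.566 CPM in IgG, 13.7-fold higher in HA (95% interval 4.39 to 69.3) over pooled counts, and was called without the filter (adjusted p = 2.64e-06). Ccl3 went the other way, at 0.528, 1.29, 0.411 and 0.330 CPM in HA, from 6 reads, against 2.84, 3.71, 9.03 and 1.70 CPM in IgG. All 4 HA libraries were below all 4 IgG libraries, and without the filter Ccl3 was called lower in HA (-2.40 ± 0.68, adjusted p = 0.00154). With all 8 groups in 1 fit Ccl3 was not called (-2.49 ± 1.49, adjusted p = 0.120). Ccl2 had 1 read in HA and 12 in IgG, and Ccl4 overlapped (4.22, 3.43, 2.88 and 3.30 CPM in HA and 0, 2.22, 9.70 and 1.13 CPM in IgG).

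An interaction term fitted to the 16 HA and IgG libraries asked whether enrichment was the same in both lines. Of 7 ligands tested, 4 were called, all with a smaller enrichment in the Sall1 line (32.2% of 12308 genes called, 13.7% in this direction). Ccl4 and Ccl9, at 2.88 to 4.22 and 2.11 to 5.62 CPM in Sall1 HA, passed the filter only through Cx3cr1 HA. The 4 of 7 and the median of the 7 ligands are thus in part set by the filter. In the same test 25 of 25 microglia genes (median log2 difference -3.39) and 9 of 9 border macrophage genes (median -5.87) were lower, beside a median of -3.22 over the 7 ligands and 0.15 over all genes, and the part of these cells was not tested. The log2 difference, Sall1 minus Cx3cr1, was -4.20 ± 0.83 for Ccl9 (adjusted p = 3.51e-04), -3.41 ± 0.83 for Ccl4 (adjusted p = 0.00248), -3.22 ± 0.46 for Cxcl16 (adjusted p = 6.64e-06) and -3.36 ± 1.17 for Ccl3 (adjusted p = 0.0267). The Ccl3 call rested on few reads and was lost without Cx3cr1 HA replicate 3 (adjusted p = 0.188), Sall1 HA replicate 17 (0.0548) or 21 (0.0605), or Sall1 IgG replicate 17 (0.0891), and with all 8 groups in 1 fit (0.216). In that larger fit Ccl4 was not called either (adjusted p = 0.118). Ccl12 was not called (-1.47 ± 0.59, adjusted p = 0.0634) but was by DESeq2 (adjusted p = 0.0210) and without Cx3cr1 IgG replicate 2 (0.0158) or Sall1 IgG replicate 7 (0.0291) or 21 (0.0342). Ccl24 (-2.30 ± 1.51, adjusted p = 0.181) and Cxcl10 (0.06 ± 0.73, adjusted p = 0.951) were not called.

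Set directly against each other, the HA libraries of the lines differed in the 4 ligands tested, Ccl4, Ccl9, Ccl12 and Cxcl16, each lower in the Sall1 line without overlap (52.9% of 9092 genes called, 25.7% lower). Ccl4 and Ccl9, at 2.88 to 4.22 and 2.11 to 5.62 CPM in Sall1 HA, passed the filter only through Cx3cr1 HA, so the 4 of 4 is in part set by the filter. The log2 differences were -3.19 ± 0.36 for Ccl4, -5.07 ± 0.30 for Ccl9, -2.38 ± 0.26 for Ccl12 and -2.77 ± 0.21 for Cxcl16, with adjusted p values of 2.33e-08, 1.96e-13, 1.75e-08 and 2.09e-11. The microglia list was lower together with these ligands, at 21192 ± 1404 CPM in the Sall1 and 157927 ± 6543 CPM in the Cx3cr1 line, while 15 astrocyte genes summed to 18649.7 ± 1309.8 and 1492 ± 112 CPM. In such bulk libraries fewer cells of a type and less RNA per cell cannot be told apart. Scaled to the microglia list, Ccl9 was still lower in the Sall1 line (-1.99 ± 0.33, adjusted p = 5.25e-07). On this scale Ccl12 turned to higher (0.71 ± 0.28, adjusted p = 0.0167), and Ccl4 (-0.12 ± 0.37, adjusted p = 0.746) and Cxcl16 (0.32 ± 0.23, adjusted p = 0.182) were not called. The scaling moves most genes the same way, with 8503 of 9092 called higher, 247 lower and a median log2 difference of 3.13. The Ccl12 value is below that median, so its call is not particular to it.

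The comparison of HA with SortIP sets ribosome-bound RNA taken straight from brain beside that of cells first digested out of the tissue, passed through a Percoll gradient and sorted. In the Cx3cr1 line 7 ligands were tested and 5 were called, Ccl2, Ccl3, Ccl4, Ccl12 and Cxcl10, all lower in HA (70.1% of 8198 genes called, 37.5% lower). Ccl9 and Cxcl16 were not called. The median log2 fold of the 7 was -2.21, beside -0.12 over all genes tested, and neither this median nor the 5 of 7 is support, since Ccl2, Ccl3 and Cxcl10 passed the filter through SortIP. For each called ligand, all 4 HA libraries were below all 8 sorted Cx3cr1 libraries, so its direction does not depend on which sorted libraries were precipitated. How many of all genes separate in this way was not counted, so the separation is a description and no support.

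Ccl2, the CCR2 ligand, had 2 reads in Cx3cr1 HA (1.74, 0, 2.29 and 0 CPM) and stood at 124, 57.6, 150.4 and 39.9 CPM in titled SortIP and 57.4, 20.3, 60.4 and 20.7 CPM in titled Sort. Over pooled counts it was 84.6-fold lower in HA than in titled SortIP (95% interval 23.3 to 700.3), an interval for counting error only (adjusted p = 7.61e-05). Ccl3 was at 3.48, 6.12, 25.2 and 6.98 CPM in HA, 796, 242, 909 and 209 CPM in titled SortIP and 412, 166, 482 and 146 CPM in titled Sort. Its log2 fold was -5.45 ± 0.90 (adjusted p = 0.00108), and the lowest sorted library was still several-fold above the highest HA library. Ccl4 was at 566, 175, 651 and 126 CPM in titled SortIP and 324, 119.7, 467 and 88.6 CPM in titled Sort, with 15.3 to 33.1 CPM in HA (log2 fold -3.54 ± 0.74, adjusted p = 0.00372).

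Ccl12 was at 298, 170.1, 425 and 249 CPM in titled SortIP and 229, 162, 331 and 180.1 CPM in titled Sort, against 48.7 to 55.9 CPM in HA, and its log2 fold of -2.21 ± 0.26 (adjusted p = 2.79e-07) was smaller than those of Ccl2 and Ccl3. Cxcl10 was at 48.9, 57.6, 121 and 42.3 CPM in titled SortIP and 78.4, 48.7, 103 and 39.9 CPM in titled Sort, against 6.98 to 20.9 CPM in HA (log2 fold -1.87 ± 0.43, adjusted p = 0.00103). With groups by description, the log2 folds were -4.74 for Ccl2, -4.72 for Ccl3, -3.06 for Ccl4, -1.99 for Ccl12 and -1.99 for Cxcl10, all called. Scaled to the microglia list the log2 folds were -6.07 ± 0.93 for Ccl3, -4.17 ± 0.77 for Ccl4, -2.83 ± 0.28 for Ccl12 and -2.49 ± 0.42 for Cxcl10. Their adjusted p values, with that of Ccl2 first, were 3.41e-05, 7.21e-04, 0.00195, 3.08e-08 and 5.14e-05. On this scale 4393 of 8198 genes were called lower, with a median log2 fold of -0.74 over all genes.

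The levels of Ccl9 and Cxcl16 overlapped between the preparations. Ccl9 was at 144, 147, 203 and 165 CPM in titled SortIP and 213, 158, 142 and 123 CPM in titled Sort, overlapping the HA range of 71.1 to 165 CPM (log2 fold -0.26 ± 0.23, adjusted p = 0.315). With library totals alone (adjusted p = 0.0485) or scaled to the microglia list (log2 fold -0.88, adjusted p = 0.00132) it was called lower in HA. The value on the microglia scale is near the median of -0.74 over all genes on that scale. Cxcl16 was at 122, 107, 148 and 96.3 CPM in titled SortIP and 116, 94.3, 122 and 91.5 CPM in titled Sort, against 127 to 157 CPM in HA. Its log2 fold of 0.42 ± 0.19 (adjusted p = 0.0555) was called with groups by description (0.47, adjusted p = 0.0297) and without titled SortIP replicate 3 (adjusted p = 0.0441), and turned to -0.18 (adjusted p = 0.425) when scaled to the microglia list. Ccl24 did not pass the filter, with 6.98 to 11.5 CPM in HA and 6.09 to 10.3 CPM over the 8 sorted libraries.

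For the Sall1 line all 8 ligands tested were called lower in HA than in SortIP (80.2% of 10494 genes called, 37.8% lower). Here the 26 microglia genes tested were also all called lower, with a median log2 fold of -4.01. The ligands are therefore given on both scales, Ccl2 on the microglia scale by its adjusted p alone. The median log2 fold of the 8 ligands was -4.55, beside 0.12 over all genes tested. Ccl2, Ccl3, Ccl4, Ccl9, Ccl24 and Cxcl10, at 0 to 7.60 CPM in HA, passed the filter through SortIP, so neither the 8 of 8 nor this median is a result. Ccl2 had 1 read in HA against 51.3, 85.0, 106 and 56.0 CPM in SortIP and 56.5, 257, 204 and 107 CPM in Sort, 808-fold lower in HA than in SortIP (95% interval 143 to 32045) over pooled counts (adjusted p = 4.40e-18, and 4.01e-14 on the microglia scale). Ccl3 was at 0.528, 1.29, 0.411 and 0.330 CPM in HA, 158, 423, 389 and 128 CPM in SortIP and 229.9, 844, 683 and 319 CPM in Sort. It differed by -8.53 ± 0.69 (adjusted p = 2.11e-06), and by -5.89 ± 0.65 (adjusted p = 1.37e-06) on the microglia scale.

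Ccl4 was at 77.9, 409, 266 and 64.0 CPM in Sall1 SortIP and 104, 528, 349.5 and 188 CPM in Sort, against 2.88 to 4.22 CPM in HA. The difference was -5.82 ± 0.81 (adjusted p = 4.29e-04) and -3.10 ± 0.80 on the microglia scale (adjusted p = 0.00835). Ccl12 was at 285, 343, 679 and 348 CPM in SortIP and 589, 1020.5, 652 and 430.4 CPM in Sort, against 8.97 to 15.0 CPM in HA. It differed by -5.04 ± 0.30 (adjusted p = 1.55e-12) and by -2.31 ± 0.28 on the microglia scale (adjusted p = 1.69e-09). Ccl2, Ccl3, Ccl4 and Ccl12 were thus lower in HA on both scales and in both lines. Ccl2 and Ccl3 in both lines, and Ccl4 in the Sall1 line, passed the filter through SortIP, so their direction was set by it. On the microglia scale 4393 of 8198 genes were called lower in the Cx3cr1 line and 1048 of 10494 in the Sall1 line.

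The other 4 ligands differed less on the microglia scale, which rests on the summed counts of the list. With TMM scaling the median of the 26 microglia genes was -4.01. That is near the value of Ccl9 and beyond those of Cxcl10, Ccl24 and Cxcl16. Ccl9 differed by -4.06 ± 0.29 and, on the microglia scale, by -1.34 ± 0.33 (adjusted p = 3.02e-15 and 1.36e-04). Cxcl10, at 45.6, 78.2, 93.9 and 56.0 CPM in SortIP, differed by -3.35 ± 0.28 and -0.63 ± 0.30 (adjusted p = 1.65e-13 and 0.0441). Ccl24 differed by -3.27 ± 0.32 and -0.57 ± 0.34, the second not called (adjusted p = 1.42e-11 and 0.110). Cxcl16, at 101, 138, 137 and 152 CPM in SortIP, differed by -2.38 ± 0.21 (adjusted p = 1.49e-12) and by 0.34 ± 0.23 on the microglia scale, the opposite sign and not called (adjusted p = 0.159). Whether the difference between preparations itself differed between the lines was not tested.

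**Figure D2:**
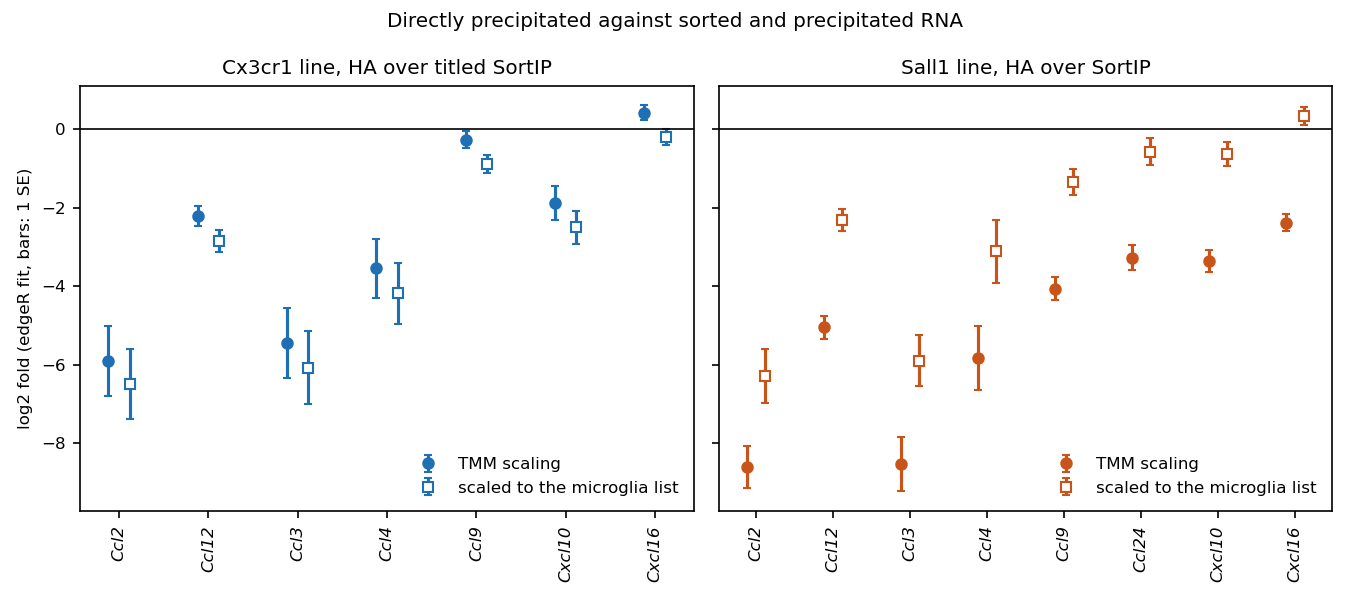
Log2 fold of HA over SortIP for the ligands tested in the Cx3cr1 line (left, 7 ligands) and the Sall1 line (right, 8 ligands), as the fitted value ± 1 SE (for Ccl2, with 1 or 2 reads in HA, a value that depends on the prior count), with TMM scaling (filled circles) and scaled to the microglia list (open squares). Ccl2, Ccl3, Ccl4 and Ccl12 lie below 0 on both scales in both lines, and Cxcl16 changes sign between the scales in both. Ccl2 and Ccl3 in both lines, and Ccl4 in the Sall1 line, passed the filter through SortIP.

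The pathway genes around the ligands were counted in the same comparison. Of 13 NF-kappaB pathway genes tested in the Cx3cr1 line, 2 were higher and 7 lower in HA, the kinase genes Ikbkb (-3.25 ± 0.30) and Chuk (-3.50 ± 0.43) and the feedback inhibitor Tnfaip3 (-3.23 ± 0.39) among the lower (log2 folds ± SE). Of 3 inflammatory cytokines tested all were lower, Il18 by -2.19 ± 0.31, Il1a with 1 read in HA against 316 in titled SortIP and Tnf with 0 against 327. Il1a and Tnf passed the filter only through SortIP, so that they were lower was set by the filter. The same holds for Chuk, Tnfaip3 and Ikbkb, with 7, 8 and 16 reads in HA, and for Zfp36l2, with 10. The counts lower and the medians of the lists in this paragraph are thus in part set by the filter. Of 17 immediate early genes 15 were lower and 1 higher, Jun by -5.49 ± 0.38 and Zfp36, whose protein binds AU-rich mRNA, by -5.93 ± 0.43. Of 12 interferon signalling genes 2 were higher and 7 lower, among the lower Stat2 at -1.56 ± 0.26, and of 6 genes for decay of AU-rich mRNA 1 was higher and 3 lower, with Zfp36l1 at -3.75 ± 0.24 and Zfp36l2 at -5.09 ± 0.37. The median over all genes tested was -0.12, and the list medians were -1.57 for the NF-kappaB pathway, -3.29 for immediate early genes, -1.38 for interferon signalling and -2.09 for AU-rich decay. Of the 26 microglia genes in this comparison, 8 were higher and 10 lower (median -0.12). Those with far fewer reads in HA than in titled SortIP include P2ry12 (194 against 19303) and Gpr34 (38 against 5374). Being lower in HA was thus not particular to these lists. The part of the immediate early response in the ligand values was not tested.

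In the Sall1 line the same lists gave 0 higher and 13 lower of 14 (NF-kappaB pathway), 0 and 4 of 4 (cytokines), 1 and 13 of 18 (immediate early genes), 0 and 11 of 12 (interferon signalling) and 0 and 4 of 6 (AU-rich decay), beside a median over all genes of 0.12. All 26 microglia genes were lower in this comparison, with a median of -4.01, beyond the list medians of -3.18 (NF-kappaB pathway), -3.10 (immediate early genes), -2.44 (interferon signalling) and -2.37 (AU-rich decay), so the counts are not particular to these lists. Nfkbiz, an inducible NF-kappaB cofactor, was at -6.68 ± 0.45 and Zfp36 at -8.38 ± 0.89, both without scaling to microglia, and Tnf had 1 read in HA against 104 in SortIP. Nfkbiz and Zfp36, with 6 and 34 reads in HA, and Tnf passed the filter only through SortIP, so their direction was set by it. Of the other chemokine ligands, 6 were tested in the Cx3cr1 line, of which 5 were higher and 1 lower in HA. Those named by smallest adjusted p were Pf4 (5.40 ± 0.27), a platelet and border macrophage gene, and Cx3cl1 (4.94 ± 0.31) and Cxcl14 (6.89 ± 0.53), made by neurons and other non-myeloid cells. With 38, 34 and 5 reads in titled SortIP they passed the filter only through HA, so that they were higher was set by it. Cx3cl1, with 267 reads in HA and 5055 in the deeper IgG libraries of this line, was not above IgG. In the Sall1 line 4 of 7 were higher and 3 lower, led by Cxcl14 (7.61 ± 0.31) and Cx3cl1 (5.85 ± 0.27). With 14 and 18 reads in SortIP, both again passed the filter only through HA.

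Genes of other leukocytes stood as follows in HA and in sorted libraries of the Cx3cr1 line. The sum of 13 border macrophage genes was 684 to 969.7 CPM in HA and 334 to 452 and 329 to 419.6 CPM in titled Sort and SortIP, higher in HA, while Ccl2, Ccl3, Ccl4 and Ccl12 were lower there. The sum of 8 monocyte genes was 1.74 to 6.98, 9.13 to 11.0 and 6.70 to 12.7 CPM, with 6, 3 and 3 of the 8 without a read. The sum of 12 neutrophil genes was 12.2 to 48.9, 0 to 39.9 and 0.553 to 1.34 CPM, with 6, 3 and 9 of the 12 without a read. For Sall1 the monocyte sums were 3.63 to 5.35, 16.1 to 32.3 and 9.06 to 36.0 CPM and the neutrophil sums 1.65 to 5.80, 0 to 59.1 and 2.04 to 236 CPM in HA, Sort and SortIP. In the same order, 6, 3 and 4 of the 8 monocyte genes and 3, 6 and 2 of the 12 neutrophil genes had no read. The part of these cells in the ligand values was not tested.

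Sequence features that the choice of members did not use were read from the reference. In the transcripts that match the table's RefSeq entries (GENCODE M21, GRCm38), the heptamer TATTTAT, the DNA form of an AU-rich element, occurs in the 3′ untranslated region of 4 of the 10 ligands, once in Ccl3, Ccl4 and Ccl12 and 7 times, counting overlaps, in Cxcl2. It is absent from those of Ccl2, Ccl7, Ccl9, Ccl24, Cxcl10 and Cxcl16. Of the 5 ligands called lower in HA than in SortIP in both lines, Ccl3, Ccl4 and Ccl12 hold it and Ccl2 and Cxcl10 do not, and the part of the element was not tested. Of 15928 genes with at least 200 bases of 3′ untranslated region, 7.90% hold the heptamer in the last 200 bases, as do Ccl3, Ccl4 and Cxcl2, whereas the region of Ccl12 is shorter, at 167 bases. The 30 bases around the heptamer (capitals) are shown for the 3 expressed ligands that carry it.
Ccl3: gtatttgtgacTATTTATtctgaaagactt
Ccl4: attatttctatTATTTATgttttagttata
Ccl12: gggcagtgtgaTATTTATtatgatatctaa

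Promoters, 250 bases before to 50 after the gene start (RefSeq, GRCm38.p6), were listed for 5 of the 10 ligands, Ccl3, Ccl9, Ccl12, Cxcl2 and Cxcl10. They were searched on both strands for the NF-kappaB consensus, for AP-1 (TGANTCA) and for the interferon-stimulated response element core (GAAANNGAA). The NF-kappaB consensus was present in Ccl9, Cxcl2 and Cxcl10 and in 8.46% of all 32851 promoter entries. AP-1 was present in Ccl9 and Cxcl10 (7.81% of entries), and the response element core in Ccl3 and Cxcl10 (8.56%). Ccl12 held none of the 3, which says only that these letters are not in this window. Cxcl10, an inducible ligand lower in HA, and Ccl9, a ligand not called between HA and SortIP of the Cx3cr1 line, both hold NF-kappaB and AP-1 matches and are printed 5′ to 3′ along the gene with all matches in capitals. The Cxcl10 promoter lies at chr5:92348840-92349139 (minus strand), where 2 of the 3 NF-kappaB matches overlap by all but 1 base, and that of Ccl9 at chr11:83578587-83578886 (minus strand).
Cxcl10: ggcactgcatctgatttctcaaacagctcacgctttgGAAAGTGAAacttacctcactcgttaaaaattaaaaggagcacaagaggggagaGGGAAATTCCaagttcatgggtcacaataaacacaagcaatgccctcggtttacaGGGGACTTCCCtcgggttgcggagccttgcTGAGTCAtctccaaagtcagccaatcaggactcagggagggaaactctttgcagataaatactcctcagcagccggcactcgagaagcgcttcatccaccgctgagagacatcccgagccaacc
Ccl9: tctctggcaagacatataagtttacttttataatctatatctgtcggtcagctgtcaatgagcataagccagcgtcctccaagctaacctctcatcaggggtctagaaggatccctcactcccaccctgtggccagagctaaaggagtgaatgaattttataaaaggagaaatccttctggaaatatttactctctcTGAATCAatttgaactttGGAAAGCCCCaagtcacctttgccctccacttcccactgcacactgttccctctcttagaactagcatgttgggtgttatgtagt

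Sort and SortIP of the same mice set total against tagged-ribosome RNA of sorted microglia. In the Sall1 line 0 of 8 ligands tested were called by edgeR, beside 10.5% of 8603 genes, with 0 at an unadjusted p under 0.05 and 0 by DESeq2. In the Cx3cr1 line, as titled, 0 of 7 were called, beside 12.8% of 8704 genes, again with 0 unadjusted and 0 by DESeq2. The spread between mice was large, and the fit that pairs the libraries of a mouse called 2 ligands in the Sall1 line, beside 15.0% of all genes, and 3 in the Cx3cr1 line, beside 15.8%.

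Of the Sall1 ligands, Ccl3 fell in SortIP from 229.9, 844, 683 and 319 CPM in Sort of mice 7, 9, 17 and 21 to 158, 423, 389 and 128 CPM, lower in 4 of 4 mice (paired log2 fold -0.76 ± 0.14, adjusted p = 4.53e-04). Ccl2 fell likewise from 56.5, 257, 204 and 107 CPM to 51.3, 85.0, 106 and 56.0 CPM (paired log2 fold -0.86 ± 0.20, adjusted p = 0.00301), and without Sort replicate 7 it was also called unpaired (adjusted p = 0.0365). Ccl4 was lower in SortIP in 4 of 4 mice and Ccl12 in 3 of 4, neither called. Ccl7 had 12, 12, 19 and 8 reads in Sort and 0, 3, 2 and 0 in SortIP. It did not pass the filter, and without the filter it was called lower in SortIP (-2.41 ± 0.66, adjusted p = 0.00467).

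In the Cx3cr1 line the titled groups differed the other way. Ccl2 stood at 57.4, 20.3, 60.4 and 20.7 CPM in titled Sort of mice 1 to 4 and at 124, 57.6, 150.4 and 39.9 CPM in titled SortIP (paired log2 fold 1.10 ± 0.18, adjusted p = 0.00140). Ccl3 (0.63 ± 0.12, adjusted p = 0.00341) and Ccl4 (0.47 ± 0.13, adjusted p = 0.0188) were higher in titled SortIP as well, each in 4 of 4 mice. If the descriptions hold, these signs turn and match those of the Sall1 line. The summed immediate early genes were higher in titled SortIP in 4 of 4 Cx3cr1 mice and lower in SortIP in 4 of 4 Sall1 mice, so they changed with the ligands, and their part was not tested.

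The same mice were high in both preparations. In the Cx3cr1 line, mice 1 and 3 had more Ccl2, Ccl3 and Ccl4 than mice 2 and 4 within each titled group, and Ccl4, for example, was at 566, 175, 651 and 126 CPM in titled SortIP of mice 1 to 4. Of the Sall1 mice, 9 and 17 were above mice 7 and 21 in both preparations, with Ccl4 at 104, 528, 349.5 and 188 CPM in Sort of mice 7, 9, 17 and 21. The immediate early gene sums followed the same mice, 18413, 7779, 16272 and 8152 CPM in titled SortIP of Cx3cr1 mice 1 to 4 and 5668, 16976, 16514 and 7805 CPM in Sort of Sall1 mice 7, 9, 17 and 21. In HA, Ccl4 of the same Cx3cr1 mice was at 33.1, 15.3, 32.1 and 27.9 CPM, with mouse 2 lowest and mouse 4 near mice 1 and 3.

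**Figure D3:**
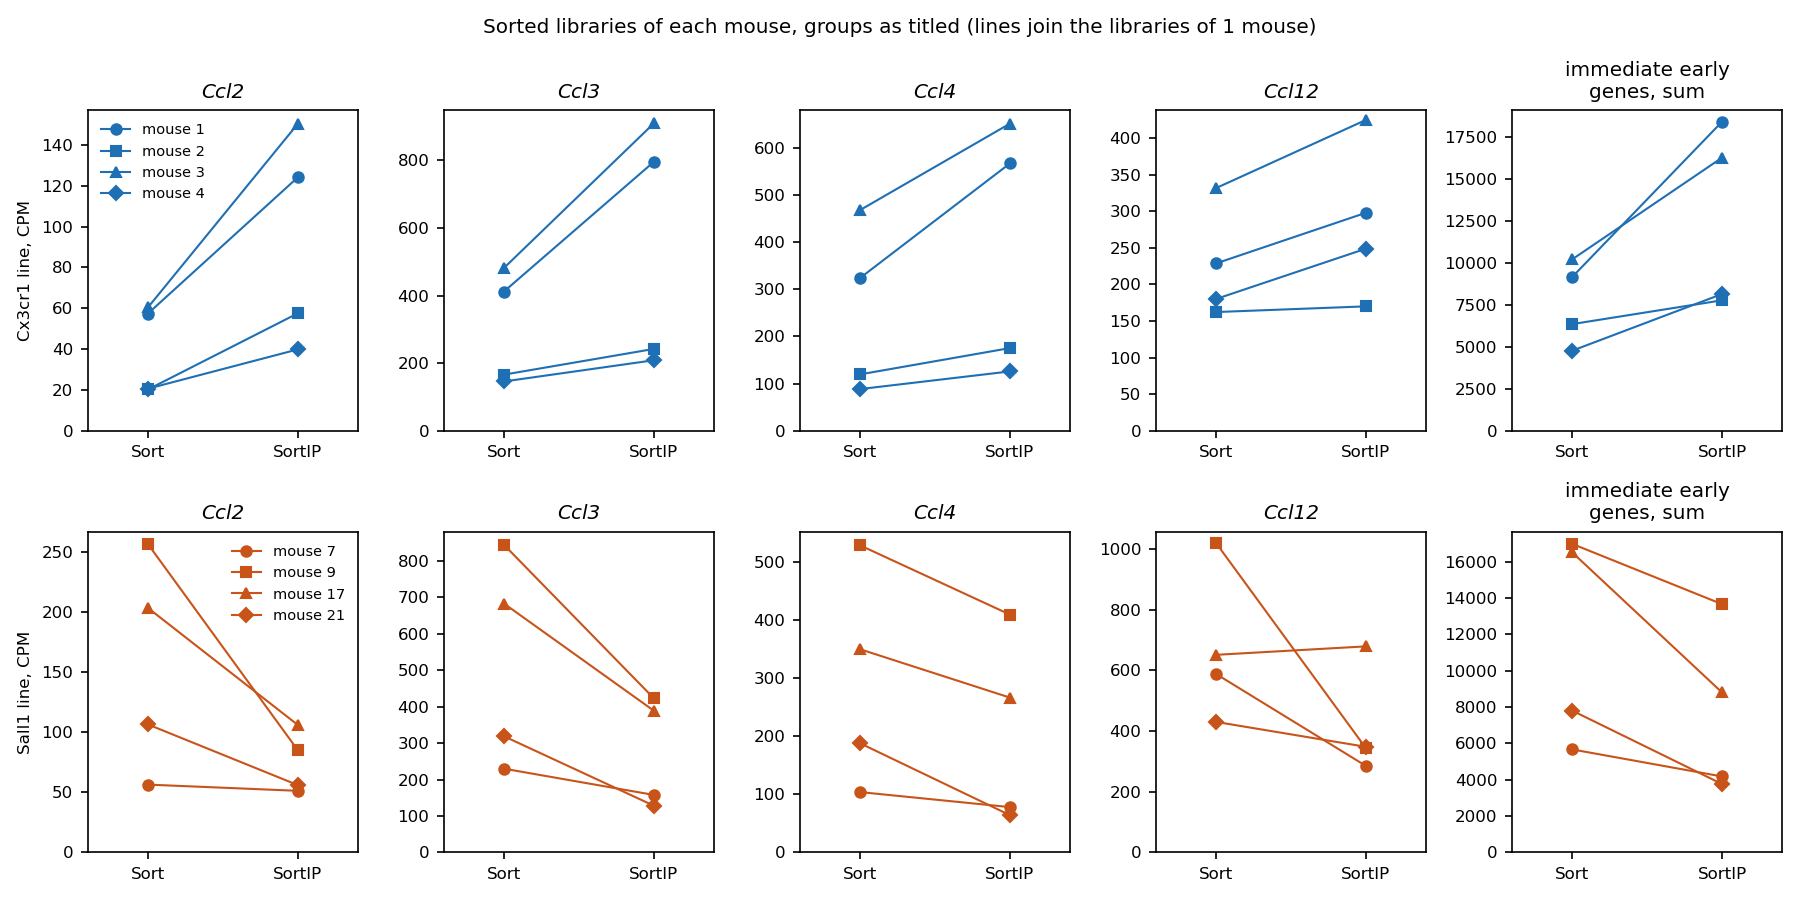
CPM of Ccl2, Ccl3, Ccl4, Ccl12 and the summed immediate early genes in Sort and SortIP (as titled), with each line joining the libraries of 1 mouse, Cx3cr1 line above and Sall1 line below. Mice 1 and 3, and mice 9 and 17, lie above the other mice of their line for Ccl3 and Ccl4, and the lines slope up in the Cx3cr1 and down in the Sall1 line for Ccl2, Ccl3, Ccl4 and the immediate early genes.

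Sorted cells of the 2 lines were compared on the sum of both sorted libraries of each mouse, which no exchange of Sort and SortIP can alter. Of 9 ligands tested 2 were called, Ccl24 higher and Ccl9 lower in the Sall1 line, beside 2.67% of 9966 genes. Per mouse, Ccl24 was at 8.14, 7.50, 8.72 and 9.21 CPM in Cx3cr1 mice 1 to 4 and at 54.4, 41.2, 44.8 and 62.1 CPM in Sall1 mice 7, 9, 17 and 21. The groups were far apart, by 2.57 ± 0.19 on the log2 scale (adjusted p = 3.34e-07). Ccl9 was at 168, 154, 181 and 150.4 CPM in the Cx3cr1 and 66.8, 80.6, 74.8 and 73.1 CPM in the Sall1 mice, without overlap (log2 difference -1.12 ± 0.12, adjusted p = 2.71e-05). Both were also called with Sort or SortIP libraries alone, by title and by description.

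Ccl12 was higher in all Sall1 mice, at 465, 747, 663 and 414 CPM against 274, 166, 390.2 and 225 CPM, and was not called by edgeR (1.13 ± 0.31, adjusted p = 0.146) but was by DESeq2 (adjusted p = 3.47e-04) and without the sum of Cx3cr1 mouse 3 (adjusted p = 0.0296). Ccl7 was at 3.88, 0.577, 4.53 and 4.60 CPM and 9.32, 6.87, 8.63 and 6.29 CPM, again without overlap and not called (1.13 ± 0.39, adjusted p = 0.171). It passed the filter only through the Sall1 line, so its direction was set by it. Cxcl16 differed by 0.33 ± 0.13 (adjusted p = 0.273) and Ccl2 by 0.82 ± 0.58 (adjusted p = 0.676). Ccl3 (-0.05 ± 0.65), Ccl4 (-0.31 ± 0.75) and Cxcl10 (0.12 ± 0.46) overlapped between the lines, with adjusted p values of 0.996, 0.938 and 0.968.

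The HA libraries of the same mice give Ccl24 and Ccl9 in a preparation that was not sorted. Per 1000 counts of the microglia list, Ccl24 was at 0.0469 to 0.0730 counts in Cx3cr1 HA and 0.165 to 0.267 in Sall1 HA, beside 0.0405 to 0.0636 and 0.0682 to 0.0709 in titled Cx3cr1 Sort and SortIP and 0.358 to 0.548 and 0.169 to 0.396 in Sall1 Sort and SortIP. On this scale each Sall1 HA, Sort and SortIP library was above all such Cx3cr1 libraries. In CPM the order of Ccl24 in HA was the reverse, without overlap. It was at 6.98 to 11.5 CPM in Cx3cr1 HA, from 6, 3, 5 and 2 reads, and at 3.29 to 5.62 CPM in Sall1 HA. The sign of its difference in HA thus depends on the scaling. Ccl9 was at 0.452 to 1.01 counts per 1000 in Cx3cr1 HA and 0.0911 to 0.267 in Sall1 HA, likewise without overlap.

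Border macrophage genes also differed between the sorted groups. Of 13 in the list 5 passed the filter and all 5 were called higher in the Sall1 line (median log2 difference 1.93), beside 1.62% of 9966 genes. Among them were Mrc1 (2.99 ± 0.33), Stab1 (0.56 ± 0.11) and Folr2 (2.21 ± 0.49). Folr2 had 11 and 4 reads in titled Cx3cr1 Sort and SortIP and 36 and 18 in Sall1 Sort and SortIP. It passed the filter only through the Sall1 line, so the 5 of 5 and this median are in part set by the filter. Pf4, also on the list of other chemokine ligands and the only 1 of its 7 tested genes that was called, differed by 1.93 ± 0.41. Their sum was 334 to 452 and 329 to 419.6 CPM in titled Cx3cr1 Sort and SortIP and 565 to 904 and 553 to 729.9 CPM in Sall1 Sort and SortIP. In HA the order was the reverse, 684 to 969.7 CPM in the Cx3cr1 and 19.5 to 30.7 CPM in the Sall1 line, with Lyve1, Cd209a and Siglec1 at 0 in Sall1 HA. The part of these cells in the Ccl24 difference was not tested. Among the receptors Ccr1, bound by CCL3 and CCL9, was higher in sorted cells of the Sall1 line (4.84 ± 0.18, adjusted p = 1.06e-10), at 151 to 197 CPM in Sort against 2.21 to 9.44 CPM in titled Cx3cr1 Sort.

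**Figure D4:**
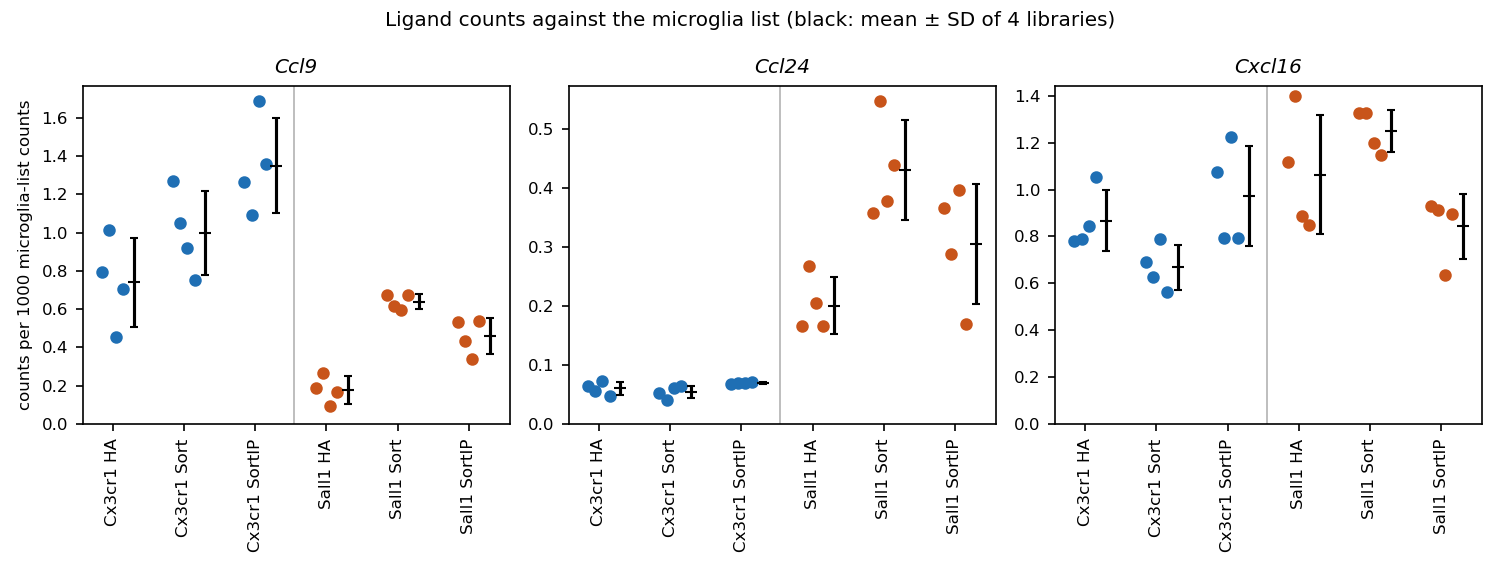
Counts of Ccl9, Ccl24 and Cxcl16 per 1000 counts of the microglia list in each HA, Sort and SortIP library, with the mean ± SD of 4 libraries in black, Cx3cr1 line in blue and Sall1 line in orange. The 12 Sall1 libraries lie above the 12 Cx3cr1 libraries for Ccl24, Ccl9 is lower in Sall1 than in Cx3cr1 libraries of the same preparation, and Cxcl16 overlaps between the HA groups.

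For the 8 ligands with a mean of at least 5 CPM, the genes with the most similar pattern were sought among 11474 genes by Pearson's r of log2(CPM + 1). Over all 32 libraries, whose main division is that between brain homogenate and sorted cells, Ccl2 was most like Ccl3 (r = 0.97), Ccl3 like Btg2 (r = 0.98), Ccl4 like Socs3 (r = 0.96) and Ccl12 like Gpr160 (r = 0.98). Ccl9 was most like Itgam (r = 0.99), Cxcl16 like Aif1 (r = 0.99), Ccl24 like Pxdc1 (r = 0.97) and Cxcl10 like Eloa (r = 0.95). Over the 16 sorted libraries, which share mice in pairs, Ccl3 was most like Rgs1 (r = 0.97), Ccl4 (r = 0.96) and Atf3 (r = 0.95), and Ccl4 most like Klf2 (r = 0.98). Ccl2 was most like Nfkbiz (r = 0.94), Ccl12 like AW112010 (r = 0.87), Cxcl10 like H3f3b (r = 0.89), Cxcl16 like Pmm2 (r = 0.82), Ccl9 like Lsp1 (r = 0.91) and Ccl24 like Tmem176b (r = 0.97). The closest ligand to Ccl9 among the members in the sorted libraries was Ccl4 (r = 0.33), far below the value of Ccl3 with Ccl4.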

How the data were processed

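RNA of 32 brain libraries from 8 mice was sequenced after poly(A) selection. The submitters' processing notes name HOMER, HISAT 0.1.5, bcl2fastq and the mm9 build, and the authors deposited 1 table of raw exon counts per gene. The strand setting and the treatment of reads that map to several places are not given in the sources used here. The members and gene lists were chosen with earlier results of these data known. CPM were computed from the counts and library totals. Genes were tested with edgeR 4.0.16 (R 4.3.3; TMM scaling, minimum count 10 in the low-count filter, robust quasi-likelihood test) and called at an adjusted p under 0.05. DESeq2 1.42.0 and other scalings, filters and fits were alternatives, and the model was checked on simulated data.

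Groups follow titles. By title, the Sort libraries of the lines differed in 2074 genes and the SortIP libraries in 931, and by description in 138 and 92. Ratios of pooled counts have 95% conditional exact intervals, which cover counting error only, as does the floor of 3 counts, 0.741 to 12.0 CPM per library. Named list genes are the 3 called genes with the smallest adjusted p per list, and other named genes were chosen after their values were seen. The series' design text states that the 4 libraries of a number come from 1 brain, so numbers pair libraries. Deviations from group means of same-numbered libraries correlated at -0.125 to 0.270 over 48 pairs (median 0.051). The Rpl22 row does not separate tagged from untagged transcripts. It was at 260.3 CPM in HA and 116 in IgG of the Cx3cr1 line, and at 311 and 133 in the Sall1 line. A result on some listed genes is not reported here.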

Additional observations from a re-analysis of the deposited data

Results flagged for a closer look

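Of 55 sets of 4 libraries in which a ligand had at least 10 counts in some library, 3 held a value whose gap to the nearest of the others exceeded Dixon's 95% critical value, where chance gives about 1 in 20. Ccl3 was at 25.2 CPM in Cx3cr1 HA of mouse 3, beside 3.48 to 6.98 CPM in the other HA libraries of that line, and its difference in enrichment between the lines was lost without that library (adjusted p = 0.188). Ccl4 was at 6.28 CPM in Cx3cr1 IgG of mouse 3, beside 1.74 to 2.43 CPM in the others. Ccl12 was at 679 CPM in Sall1 SortIP of mouse 17, beside 285 to 348 CPM in the others, and this mouse was the only Sall1 mouse without a lower Ccl12 value in SortIP than in Sort.

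The enrichment of HA over IgG differed between the lines for 4 ligands by the interaction test in edgeR. Of these, Ccl4 and Ccl9 passed the filter only through Cx3cr1 HA. The log2 difference, Sall1 minus Cx3cr1, was -4.20 for Ccl9, -3.41 for Ccl4, -3.36 for Ccl3 and -3.22 for Cxcl16. The 26 microglia genes, which differed in the same direction between the HA groups, stood at 148929 to 162935 CPM in Cx3cr1 HA and 19862 to 23168 CPM in Sall1 HA, and their part in these differences was not tested.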

How the results depend on the processing

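The calls of Ccl2, Ccl3, Ccl4, Ccl12 and Cxcl10 as lower in HA than in SortIP held in both lines under every alternative run. Ccl2, Ccl3 and Cxcl10, and in the Sall1 line also Ccl4, passed the filter through SortIP, so that these calls held is no support. Of all genes tested, 37.5% (Cx3cr1) and 37.8% (Sall1) were called lower in the main fits. Of the recomputed values of single ligands, 885 kept sign and side of the threshold, 26 gained and 13 lost a call and 50 changed sign. In Sall1 against Cx3cr1 HA, where both were called lower, Ccl12 turned to 0.71 (called) and Cxcl16 to 0.32 (not called) when scaled to the microglia list. That scaling moved the median log2 difference of all genes to 3.13, the higher share of calls from 51.4% to 97.2%, the ligands called from 4 to 2 and all genes called from 4806 to 8750. In HA against SortIP it turned Cxcl16 to -0.18 (Cx3cr1) and 0.34 (Sall1), neither called, and moved the higher share from 46.5% to 27.2% and from 52.9% to 89.0%. In Sall1 HA against IgG the number of ligands called was 7 with no filter, 5 with all 8 groups in 1 fit and 1 with a length offset and replicate block, against 3, and in the enrichment difference it was 2 with all 8 groups in 1 fit, against 4. Cxcl10 there, never called, turned to -0.0249 with median-ratio size factors, to -0.27 with the length offset and replicate block, and ranged from -0.46 to 0.35 with 1 library left out. The replicate block, which pairs libraries of 1 brain, called 2 ligands in Sall1 SortIP against Sort and 3 in Cx3cr1 SortIP against Sort, as did the length offset with the block (2 and 3), against 0 in each, and no filter called 1 in the Sall1 line, where leaving out 1 library gave 0 to 1. The block changed no other call of a ligand. All genes called fell to 538 with all 8 groups in 1 fit in the Sall1 line (against 906, 393 to 785 with 1 library left out) and to 537 in the Cx3cr1 line (against 1115, 456 to 1386). With library totals the higher share went from 51.8% to 21.5% and from 49.6% to 76.7% in these comparisons, and with no filter to 60.3% in the second. Uncalled values of Sall1 SortIP against Sort turned to -0.0508 for Ccl9, -0.12 for Ccl24 and -0.0756 for Cxcl10 with library totals. Ccl24 turned to -0.0128 with no filter, -0.0045 with all 8 groups and -0.0517 with the length offset and replicate block, and Cxcl10 to -0.0424 with the latter. In the Cx3cr1 line library totals gave 0.0553 for Ccl9 and 0.00096 for Cxcl10. With 1 library left out, the Sall1 values ranged from -0.14 to 0.27 for Ccl24, -0.17 to 0.48 for Cxcl10, -0.0779 to 0.0891 for Cxcl16 and -0.86 to 0.13 for Ccl4, and the Cx3cr1 values from -0.19 to 0.11 for Ccl9, -0.0864 to 0.13 for Cxcl16, -0.61 to 0.16 for Cxcl10 and -0.0352 to 0.47 for Ccl12. Between sorted cells of the lines, all genes called were 2074 and 931 with Sort or SortIP libraries alone by title and 138 and 92 by description, against 266, and 150 to 248 with 1 mouse left out. Ccl3 turned to 0.67 and Ccl4 to 0.11 with Sort by title, and Ccl2 to -0.12 with SortIP by title, and with 1 mouse left out the ranges were -0.35 to 0.32 for Ccl3, -0.77 to 0.12 for Ccl4 and -0.17 to 0.52 for Cxcl10. The higher share there went from 60.5% to 70.7% without Cx3cr1 mouse 2 and to 50.0% with Sort by title. In HA against IgG library totals moved the higher share from 44.3% to 31.2% (Cx3cr1) and from 49.4% to 34.8% (Sall1), and all 8 groups in 1 fit moved it to 33.7% (Cx3cr1) and, in Sall1 against Cx3cr1 HA, to 65.3%. Apart from settings that change the genes or libraries tested, the cause of these shifts was not tested. A Sall1 fit of HA against the sum of sorted libraries per mouse was added after seeing the data. Ligands under the floor of 3 counts, 5.22 to 10.5 CPM in Cx3cr1 HA, cannot be compared with IgG at this depth.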

Other observations

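The ratio of Ccl3 to Ccl4 counts, chosen after its values were seen, stood apart in the 2 HA groups. Pooled over 4 libraries, Cx3cr1 HA held 17 Ccl3 and 46 Ccl4 counts (ratios of 0.105 to 0.786 per library) and Sall1 HA 6 and 33 (0.100 to 0.375). In every sorted library the ratio was 1.03 or more, and the pooled ratio was 1.19 in titled Cx3cr1 Sort, 1.42 in titled Cx3cr1 SortIP, 1.77 in Sall1 Sort and 1.28 in Sall1 SortIP. IgG libraries, with 69 Ccl3 and 28 Ccl4 counts in the Cx3cr1 line and 47 and 40 in the Sall1 line, had pooled ratios of 2.46 and 1.18. The 2 genes are neighbours on opposite strands, and each carries 1 TATTTAT heptamer in its 3′ untranslated region.

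Cxcl2, a neutrophil attractant that is induced early in inflammation, was close to absent. It had 13 reads in Sall1 Sort, 4 in titled Cx3cr1 SortIP, 1 each in Sall1 SortIP, titled Cx3cr1 Sort and Cx3cr1 IgG and none in the other groups, so its order between groups was not detectable at this depth.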
